A study of Mus musculus with 8 samples.

Results

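Cytosolic ribosomal proteins are the protein subunits that, with ribosomal RNA, build the small (40S) and large (60S) subunits of the ribosome. The genes described here are those whose platform symbol is Rpl or Rps followed by a number, with an optional letter or l suffix, and also Rplp0, Rplp1, Rplp2 and Rpsa. The Rps6k kinases were left out. By this rule 61 of the 18300 genes named on the array were members, 37 of the large subunit and 24 of the small subunit, read by 90 probes. Of these genes, 57 had a probe that passed the detection filter (2 or more of the 8 arrays with a detection p-value below 0.05). The other 4, Rpl17, Rpl6, Rps20 and Rps23, had 1 named probe each, detected on 0 arrays, and gave no value.

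The series measured RNA of mouse embryonic stem (ES) cells on Illumina expression arrays, in 4 groups of 2 arrays. All cells were Fgf4-deficient (FGF4-/-) cells of the R1 line, of 129S1/SV-+p+Tyr-cKitlSl-J/+ and 129X1/SvJ background, and had spent a night in N2B27, a medium without serum, containing 10 ng/ml BMP4. The first group received FGF4 at 20 ng/ml and an shRNA vector against Mp1 (Lamtor3), shMp1Lib on 1 array and shMP1G on the other. The second received FGF4 at 20 ng/ml with the control shRNAs shRnd1 and shRnd2, the third LIF at 10 u/ml with control shRNAs, and the fourth no growth factor with control shRNAs, all sampled at day 3. The titles give shRnd1 and shRnd2 for the LIF arrays, whereas the treatment note gives Rnd1 for both. Each shRNA vector was profiled once per condition. Nothing in the labels states that a group's arrays stem from separate cultures, so the p-values reflect the spread among these samples alone, and that spread may be technical.

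Ribosomal protein genes are transcribed at high levels in growing cells, and nearly all of their products are needed in equal numbers in each ribosome. Their mRNAs typically begin with a C followed by a run of C and T letters, the 5′ terminal oligopyrimidine (TOP) motif, through which the kinase complex mTORC1 controls their translation. Mp1 belongs to the Ragulator complex, which anchors mTORC1 at lysosomes, and also binds MEK1 and ERK1. An array reads mRNA levels and not translation. ES cells are known for a fast cell cycle and for cell fate changes that follow FGF and ERK signalling.

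The start regions of the members show a sequence feature that the rule did not use. RefSeq start regions of build GRCm38.p6 were at hand for 50 of the 61 genes, with 59 entries because some genes have several starts. A run of at least 6 letters C or T that begins with C within 10 bases of the annotated start, on the gene's strand, stood in 29 of the 59 entries (49.2%), against 6302 of all 32851 entries (19.2%). The letters CCGGAAG, searched on both strands of the 250 bases before and 50 bases after the start, stood in 24 of the 59 entries (40.7%), against 2910 of all entries (8.86%). Such a match describes letters and is not evidence of binding. The windows below run from 40 bases before the start to the first 20 transcribed bases, 5′ to 3′, with the run of C and T in capitals. They show the stalk protein Rplp2 and the kinase target Rps6, Rpl28 and Rpl38, whose probes are compared below, and the paralogs Rpl39, Rpl39l and Rpl22l1, which carry the largest differences between arrays or the contrast to them. Every window shown was picked with the run, which 29 of the 59 entries hold, so the windows are not typical. Of other genes named below, Rplp0, Rpl7l1, Rpl22, Rpl36a, Rpl36al, Rpl37, Rpl41, Rps3, Rps3a1, Rps4x, Rps15 and Rpsa had no such run.
Rplp2, chr7:141447611-141447670, plus strand: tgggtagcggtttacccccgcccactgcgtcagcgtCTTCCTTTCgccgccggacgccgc
Rps6, chr4:86857348-86857407, minus strand: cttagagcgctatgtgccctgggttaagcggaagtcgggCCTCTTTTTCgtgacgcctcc
Rpl28, chr7:4792925-4792984, plus strand: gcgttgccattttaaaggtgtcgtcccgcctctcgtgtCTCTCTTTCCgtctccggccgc
Rpl38, chr11:114668540-114668599, plus strand: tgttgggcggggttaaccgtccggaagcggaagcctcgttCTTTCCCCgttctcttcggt
Rpl39, chrX:37085203-37085262, minus strand: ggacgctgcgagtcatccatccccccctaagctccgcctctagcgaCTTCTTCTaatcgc
Rpl39l, chr16:10170188-10170247, plus strand: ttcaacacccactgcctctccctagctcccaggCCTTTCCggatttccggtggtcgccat
Rpl22l1, chr3:28805468-28805527, plus strand: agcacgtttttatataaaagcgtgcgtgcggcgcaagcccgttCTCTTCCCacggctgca

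The arrays detected 15375 to 17813 of 45281 probes, with the highest number on the shMp1Lib array. Across all features that array had correlations of 0.887 to 0.962 with the others, against 0.940 to 0.993 among the other 7. The only named Lamtor3 probe was detected on 0 arrays and 0 probes were named Fgf4, so neither the knockdown nor the deletion could be checked. The ES cell markers Pou5f1, Dppa5a, Tdgf1 and Klf4 were detected on all 8 arrays, with a Pou5f1 intensity of 10542 to 18778, while Sox2, Nanog, Zfp42, Tfcp2l1 and Sall4 had no named probe and Esrrb was detected on 0. Of 8 fibroblast genes, which feeder cells would bring, Col1a1, Col1a2, Col3a1, Postn, Lum and Dcn were detected on 0 arrays, and Thy1 and Ccn2 on 8. Of 7 epiblast genes, Sox3 was detected on 0 arrays and Fgf5 and Otx2 had no named probe. The 4 measured, Pou3f1, Dnmt3b, Car4 and Cldn6, passed as higher in FGF4 against no growth factor with control shRNAs (limma), where 15.7% of all features passed. Car4 and Dnmt3b were near background with no growth factor, so no fold is given. In that comparison 1 of the 4 measured ES markers was lower, and 1 of 4 measured trophoblast and 1 of 4 measured endoderm genes was higher. In such bulk samples, fewer cells of a type and less RNA per cell cannot be told apart.

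Across growth factor conditions most of the chosen ribosomal protein probes varied little, but most also read near the top of the intensity scale. Their probes were among the brightest on the array, with a median percentile of 99.3 over the 90 probes. With the shMp1Lib array left aside, 48 of the 57 genes varied by less than 0.5 log2 units over the other 7 arrays, and the median range was 0.314. No share over all features stands beside this count, so it does not show whether members vary less than other genes. Of the 57 probes, 35 had a mean level of 14 or above, where the highest single value of a member was 14.75, and their median range over those 7 arrays was 0.250, against 0.648 for the 10 below 12. How much a bright probe understates a change was not tested, so a narrow range is a statement about the probe. Rpl39l was the only gene of the 57 whose range there was above 1. All levels below are normalized log2 intensities, which may be compared between arrays for 1 probe and not between probes.

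Rplp1, Rplp2 and Rplp0 form the stalk of the large subunit that recruits elongation factors. Rplp1 read 14.63 and 14.62 with shMp1Lib and shMP1G, 14.43 and 14.64 with control shRNAs in FGF4, 14.66 and 14.57 in LIF, and 14.52 and 14.57 with no growth factor. Its groups overlapped, except that both Mp1 shRNA values lay above those with no growth factor. Rplp2 read 12.97 and 14.17 with the Mp1 shRNAs, 14.14 and 14.10 with control shRNAs in FGF4, 14.12 and 14.23 in LIF, and 14.01 and 14.27 with no growth factor. Only its shMp1Lib value lay apart from the rest. Rplp0, a common reference gene, read 11.09 and 11.31 with the Mp1 shRNAs, 11.42 and 11.26 with control shRNAs in FGF4, 10.85 and 11.14 in LIF, and 10.95 and 11.08 with no growth factor. Both control FGF4 values of Rplp0 were above those of LIF and of no growth factor, but the difference of FGF4 over no growth factor, 0.33 log2 units (SE 0.188), did not pass the test (limma, adjusted p = 0.324).

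Among small subunit proteins, Rps6, the substrate of the S6 kinases downstream of mTORC1, read 14.34 and 14.50 with the Mp1 shRNAs, 14.62 and 14.75 with control shRNAs in FGF4, 14.61 and 14.64 in LIF, and 14.58 and 14.51 with no growth factor. The Mp1 shRNA arrays held the lowest values, and their difference from the FGF4 control arrays, -0.27 (95% interval -0.653 to 0.123), did not pass the test. Rps19 and Rps14, known in human from Diamond-Blackfan anaemia and from the 5q deletion syndrome, had ranges of 0.29 and 0.32 log2 units over the 8 arrays. Rps9 and Rps2 had ranges of 0.19 and 0.20, Rpl3 and Rpl41 of the large subunit 0.17 each, the 4 narrowest of the 57. These 4 probes read at mean levels of 14.39 to 14.55, at the bright end of the array. Rpl13a, used as a reference gene and known in human as part of the GAIT complex, which silences translation of selected mRNAs, read 12.46 and 12.89 with the Mp1 shRNAs, 13.08 and 12.92 with control shRNAs in FGF4, 13.08 and 12.91 in LIF, and 12.75 and 12.64 with no growth factor.

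**Figure D1:**
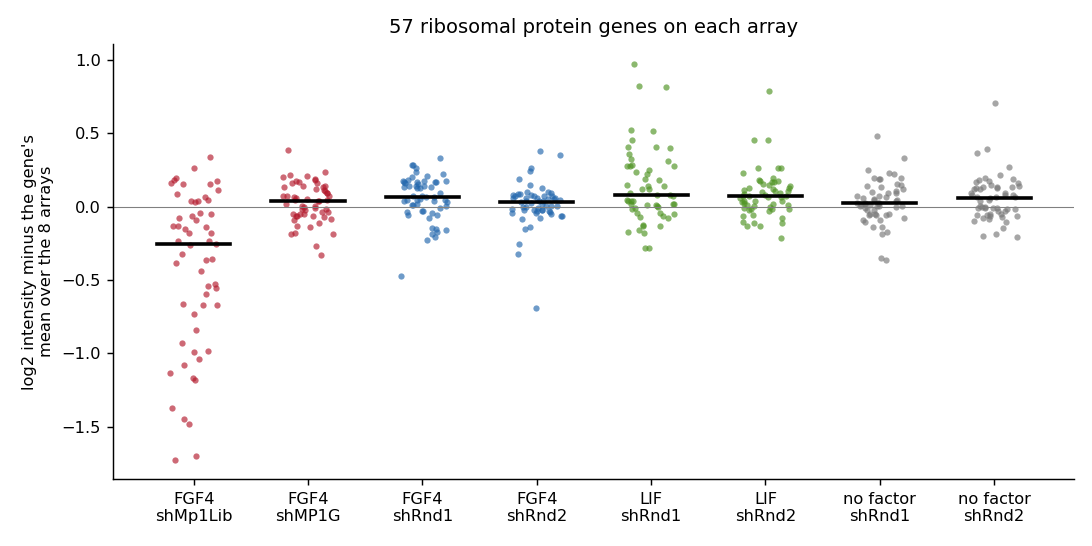
Each point is 1 of 57 ribosomal protein genes on 1 array, as its normalized log2 intensity minus that gene's mean over the 8 arrays (y axis), and black bars are medians per array. The shMp1Lib array has a median of -0.257 and points down to -1.72, while the medians of the other 7 arrays lie between 0.0258 and 0.0785.

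FGF4 against no growth factor, both with control shRNAs, asks what the factor itself changes. Of the 57 ribosomal protein genes, 0 passed the test in limma, where 15.7% of all features tested passed. Without adjustment, 2 had a p under 0.05, Rpl39l and Rpsa, where 27.8% of all features did. The median difference was -0.00438 log2 units for the members and -0.0157 for all 14103 features. Of the 57 members 55 differed by less than 0.5, a count given without its share over all features. The 95% interval of a member's difference had a median half-width of 0.442 log2 units, so changes smaller than that were mostly not detectable with these arrays.

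LIF against no growth factor gave the same count for the members, 0 of 57, with a background of 0.00709%, which is 1 feature of 14103. The members' median was 0.0363 and that of all features 0.00396. Rpl14, the 1 member with an unadjusted p under 0.05, chosen here after its values were seen, differed by 0.55 (adjusted p = 0.627 in limma). Of all features 7.35% had such an unadjusted p. FGF4 against LIF again gave 0 of 57 in limma, against 15.6% of all features. At an unadjusted p under 0.05 there were 2, Rpl39l and Rpsa, against 28.1% of all features. The median over members was -0.0313, beside -0.0138 for all features. These comparisons share arrays, so their values are given side by side.

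Rpl39l was the member that differed most with FGF4. It is an autosomal paralog of the X-linked 60S protein gene Rpl39, known in mouse for its expression in male germ cells. Its probe (ILMN_2684892) read 5.34 and 6.95 with shMp1Lib and shMP1G, 6.57 and 6.35 with control shRNAs in FGF4, 8.01 and 7.83 in LIF, and 7.52 and 7.74 under no growth factor. Every array with FGF4 lay below every array without it. Before normalization the intensities were 109 and 191 with the Mp1 shRNAs, 170 and 141 with control shRNAs in FGF4, 220 and 270 in LIF, and 235 and 280 with no growth factor, so the FGF4 arrays were again the lowest. The probe is dim, and the median intensity over all probes of the shMp1Lib array was 89.25. The shMp1Lib value of Rpl39l is thus near background, and the size of a difference that includes it is uncertain.

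With control shRNAs, Rpl39l differed by -1.46 log2 units (SE 0.437) in FGF4 against LIF (limma, adjusted p = 0.0582) and by -1.18 (SE 0.437) in FGF4 against no growth factor (adjusted p = 0.119). Neither passed with the spread pooled over all 8 arrays. Both passed when an Mp1 shRNA array was left out, with the same adjusted p for either, 0.000547 against LIF and 0.00159 against no growth factor. Over all 18 alternatives the adjusted p lay between 0.000547 and 0.255 against LIF and between 0.00121 and 0.412 against no growth factor, and the difference was negative in each. With 1 of the 6 control arrays left out, neither passed. The canonical Rpl39, whose probe lies near the top of the scale, read 14.55 and 14.45 with the Mp1 shRNAs, 14.56 and 14.34 with control shRNAs in FGF4, 14.35 and 14.66 in LIF, and 14.48 and 14.48 with no growth factor. Its groups overlapped. Whether the pair differ in their response was not tested.

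Rps4l, a paralog of the X-linked small subunit gene Rps4x, read 11.59 and 12.39 with the Mp1 shRNAs, 12.59 and 12.32 with control shRNAs in FGF4, 13.04 and 12.85 in LIF, and 12.91 and 12.95 with no growth factor. After normalization the 4 FGF4 arrays were the lowest. Before it, the intensities were 3477 and 5615 with the Mp1 shRNAs, 7274 and 4947 with control shRNAs in FGF4, 6657 and 7513 in LIF, and 7906 and 8390 with no growth factor, so those of FGF4 and LIF overlapped. The difference of FGF4 over no growth factor with control shRNAs was -0.47 (SE 0.266, adjusted p = 0.307 in limma), which did not pass. Rps4x read between 14.50 and 14.75 on the 8 arrays. Its FGF4 values overlapped those of LIF and of no growth factor, while both LIF values lay above both with no growth factor. Probe sequences were not used here, so cross-hybridisation between such close paralogs was not tested.

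Rpsa, the 40S protein also described as a laminin receptor, was read by a dim probe (ILMN_2607253). It read 5.45 and 5.48 with the Mp1 shRNAs, 5.59 and 5.48 with control shRNAs in FGF4, 6.21 and 5.97 in LIF, and 6.05 and 6.19 with no growth factor. After normalization the FGF4 arrays were thus the lowest. The intensities before background correction and normalization were 114 and 105 with the Mp1 shRNAs, 119 and 103 with control shRNAs in FGF4, 105 and 116 in LIF, and 121 and 136 with no growth factor. The Rpsa difference of FGF4 over no growth factor with control shRNAs was -0.59 (SE 0.176, adjusted p = 0.0588 in limma), and it passed with either Mp1 shRNA array left out (adjusted p = 0.0346). The uncorrected intensities of FGF4 and LIF overlapped, so the order seen for Rpsa in that pair is not present in the intensities before processing.

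Other paralogs gave no call between growth factors. Rpl22l1, a paralog of Rpl22 whose expression is repressed by the Rpl22 protein in mouse cells, read 6.68 and 8.27 with the Mp1 shRNAs, 8.25 and 8.10 with control shRNAs in FGF4, 8.97 and 8.27 in LIF, and 8.38 and 8.36 with no growth factor. Rpl22 read 11.96 and 11.51 with the Mp1 shRNAs, 11.40 and 11.58 with control shRNAs in FGF4, 11.57 and 11.66 in LIF, and 11.64 and 11.66 with no growth factor. On the shMp1Lib array Rpl22l1 had its lowest value and Rpl22 its highest. Rps27l, a p53-inducible paralog of Rps27, read 13.87 with shMp1Lib and 14.41 to 14.73 on the other 7 arrays, and Rpl7l1 read 11.33 to 11.61 over all 8. Rpl36a and its paralog Rpl36al, whose proteins are nearly identical, both had their lowest value with shMp1Lib, 12.43 and 12.71. On the other 7 arrays they read 12.95 to 13.33 and 13.85 to 14.29.

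**Figure D2:**
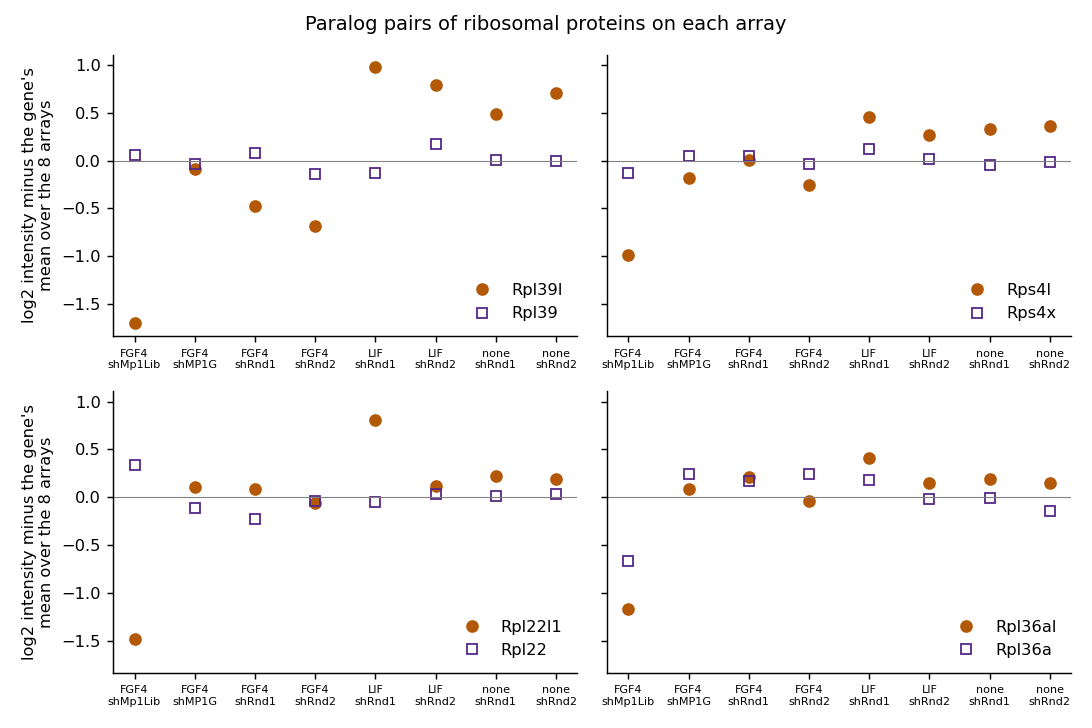
Normalized log2 intensity minus the gene's mean over the 8 arrays (y axis) for 4 paralog pairs on each array (x axis), filled circles for the paralog and open squares for the canonical gene. Rpl39l and Rps4l lie lower on the 4 FGF4 arrays than on the LIF and no factor arrays, and Rpl22l1 and Rpl36al drop on the shMp1Lib array.

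Mp1 shRNAs against control shRNAs, both in FGF4, asks what the knockdown vector changes. No ribosomal protein gene passed, 0 of 57 in limma, against a background of 0.0993% (14 of 14103 features). The median difference was -0.209 log2 units for the members, -0.0459 for the 8933 named features and 0.0477 for all features, and 43 of the 57 differences were negative. They ran from -0.93 (Rpl30) to 0.25 (Rpl22), and the lowest adjusted p was 0.318. At an unadjusted p under 0.05 there were 3, Rpl14, Rpl7a and Rps3a1, named after their values were seen, at -0.55, -0.64 and -0.62. Of all features 14.5% had such an unadjusted p.

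The negative median rested on 1 of the 2 Mp1 shRNA arrays. On the shMp1Lib array, 38 of the 57 members had their lowest value of the 8 arrays, where 23.4% of all features did. Without that array the members' median against the FGF4 control arrays was 0.020, beside 0.0192 for all features, and 0 of 57 members passed in limma. Without the shMP1G array, 20 of 57 passed (35.1%), all lower, where 20.6% of all features passed. The array that is left then stands alone, and its spread is taken to be that of the other groups. Leaving out shMP1G therefore tests the shMp1Lib array, and its larger count has no replicate check.

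Against LIF and against no growth factor, the Mp1 shRNA arrays in FGF4 gave the only calls among the members, all of them lower. Against LIF, 3 of 57 passed in limma, with 19.5% of all features passing. They were Rpl39l at -1.78 (SE 0.437, adjusted p = 0.0266), Rps4l at -0.95 (SE 0.266, adjusted p = 0.0415) and Rpsa at -0.63 (SE 0.176, adjusted p = 0.0414). The Rpl39l difference includes the shMp1Lib value near background, so its size is uncertain. Against no growth factor, 1 of 57 passed, Rpsa at -0.66 (SE 0.176, adjusted p = 0.0408), with a background of 14.2%. Both shares are below that background.

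These calls also depended on single arrays. Over 18 or 19 alternatives against LIF, the adjusted p lay between 0.000218 and 0.144 for Rpl39l, between 0.00163 and 0.207 for Rps4l and between 0.025 and 0.293 for Rpsa. Without shMp1Lib, Rpl39l still passed at -0.97 (adjusted p = 0.0194), while Rps4l (-0.55) and Rpsa (-0.61) did not, at adjusted p = 0.125 and 0.0871. With any 1 of the 6 control arrays left out, none of the 3 passed against LIF, and of the fits without 1 array Rpsa against no growth factor passed only in that without shMP1G (adjusted p = 0.034). With background correction left out, the Rpsa difference was -0.31 against LIF (adjusted p = 0.0913) and -0.33 against no growth factor (adjusted p = 0.101), and neither passed.

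**Figure D3:**
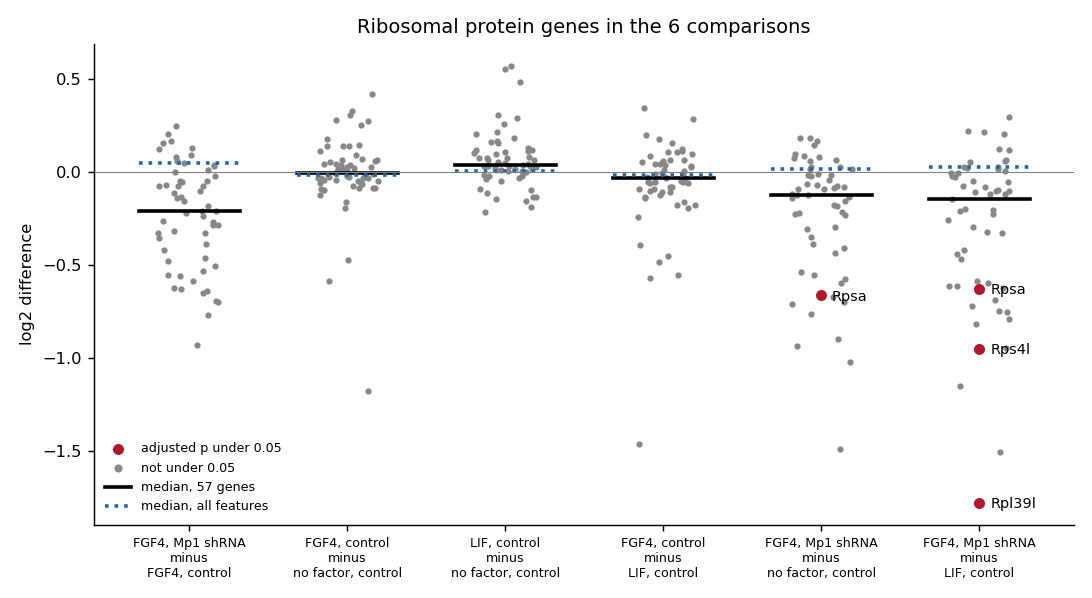
Log2 differences (y axis) of 57 ribosomal protein genes in the 6 comparisons (x axis), each named as the group on top minus the group below it. Red points have an adjusted p under 0.05 in limma, black bars are medians of the members and dotted bars medians of all 14103 features. In all 3 comparisons that hold the Mp1 shRNA arrays the members' median lies below that of all features (-0.209, -0.126 and -0.145).

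The drop on the shMp1Lib array was uneven among ribosomal proteins. Between shMp1Lib and shMP1G, with 1 array each and no test, the median difference of the members was -0.305, 43 of the 57 were lower and 12 were lower by over 1 log2 unit. Over all features 7.21% were lower by over 1. Within each of the other 3 groups, the members' median difference between the 2 arrays lay between -0.0295 and 0.0635, and 0 members differed by over 1. Both subunits took part, with 9 of 35 large subunit and 3 of 22 small subunit genes lower by over 1.

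By the brightest probe of each gene, the widest drops were those of Rps15, Rpl30, Rpl29, Rpl39l and Rpl22l1. That of Rpl39l ends near background, so its size is uncertain. Rps15, a 40S protein of the decoding region, read 12.33 with shMp1Lib, against 14.08 with shMP1G, 14.03 and 13.77 with control shRNAs in FGF4, and 13.70 to 13.97 on the other 4 arrays. Rpl30, a 60S protein that in yeast represses its own splicing, read 9.68 with shMp1Lib, against 11.40 with shMP1G, 11.69 and 11.25 with control shRNAs in FGF4, and 11.52 to 12.22 on the others. Rpl29 read 11.34 with shMp1Lib, against 12.99 with shMP1G, 12.99 and 12.89 with control shRNAs in FGF4, and 12.88 to 13.31 on the others. In each case the shMp1Lib value lay more than 1 log2 unit below the lowest of the other 7 arrays. The 5 highest, taken after their values were seen, were Rpl22, Rpl37, Rpl38, Rps3 and Rpl10a, which were higher with shMp1Lib by 0.28 to 0.45.

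The start region gave no plain division between the genes. Of the 12 genes lower by over 1, 10 had a RefSeq start region, and of those 6 held the run of C and T and 5 held CCGGAAG. Of the other 45 genes, 38 had a start region, of which 20 held the run and 17 held CCGGAAG. This is a description of few genes and carries no test.

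Probes of the same gene differed on the shMp1Lib array. Of the 57 genes, 16 had more than 1 passing probe. In 11 of these at least 1 dimmer probe was lower between shMp1Lib and shMP1G than the brightest, by any amount. The gap between probes was as small as 0.012 for Rpl7l1 and 0.073 for Rps3, which are among the 11. For 4 genes the probes differed by over 1 log2 unit. Rpl38, a 60S protein known in mouse for its part in the translation of Hox mRNAs, had the widest gap. Its dimmer probe (ILMN_2594971) had an intensity of 980 with shMp1Lib and 3715 with shMP1G, 4973 and 2400 with control shRNAs in FGF4, 2670 and 2951 in LIF, and 2762 and 2852 with no growth factor. Its brighter probe (ILMN_3135931) had 23627 with shMp1Lib and 19685 with shMP1G, 24447 and 19807 with control shRNAs in FGF4, 19432 and 19862 in LIF, and 21897 and 21380 with no growth factor. Between the Mp1 shRNA arrays the dimmer probe thus gave -2.35 and the brighter 0.35 on the normalized log2 scale.

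The other 3 genes with such a gap were Rpl28, Rps19 and Rps24. Rpl28 gave -2.05 with its dimmer probe and -0.76 with its brighter one, Rps19 -1.27 and -0.04, and Rps24 -1.22 and -0.16. In Rpl29 the order was turned, with -1.65 for the brightest probe and -0.72 for the other. Both Rpl30 probes were lower, by -1.72 and -1.46. With the dimmest passing probe of each gene in place of the brightest, a choice made after these values were seen, 5 of 57 members passed in limma for Mp1 shRNAs in FGF4 against LIF, with a median of -0.322. The share of all features passing with that probe choice is not given. With the brightest probes it was 19.5%.

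The drop differed between classes of signal strength, without a steady order. The classes use the mean level over all 8 arrays, shMp1Lib included, so a drop there itself lowers a gene's mean level. By this mean, the 35 members at 14 or above had a median difference of -0.156 between shMp1Lib and shMP1G, the 12 between 12 and 14 one of -0.996, and the 10 below 12 one of -0.436. Genes lower by over 1 numbered 3, 6 and 3 in these classes. Across the 57 genes, mean level and that difference had Pearson's r of 0.251 and Spearman's rho of 0.371, as a description of genes read on the same arrays. The brightest probes also varied least elsewhere, with a median range over the other 7 arrays of 0.250 at 14 or above, 0.426 between 12 and 14 and 0.648 below 12. The part of signal strength in the result was not tested.

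**Figure D4:**
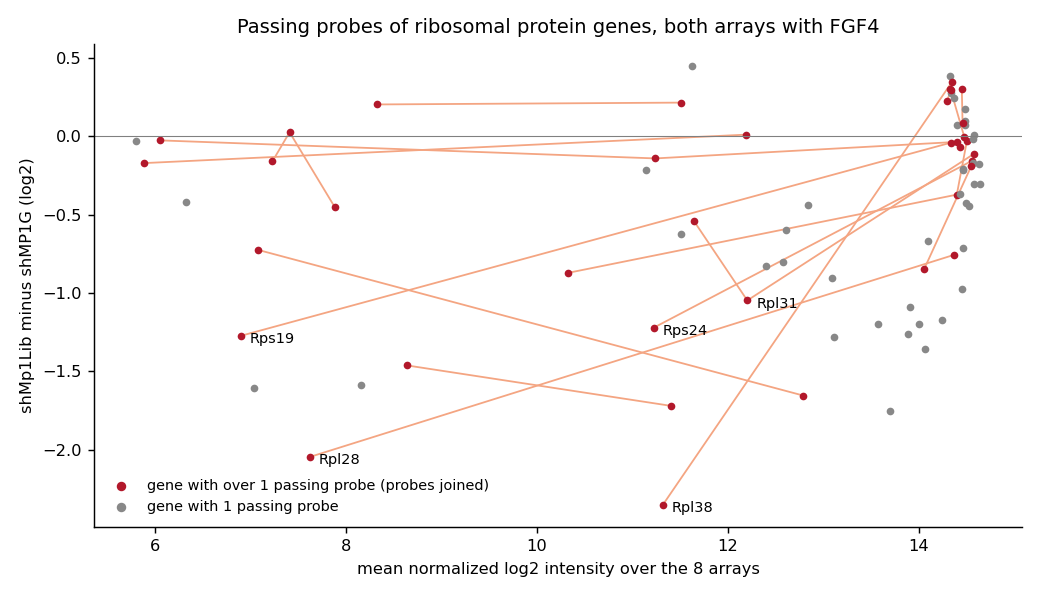
Each point is 1 of the 78 passing probes of ribosomal protein genes, by its mean normalized log2 intensity over the 8 arrays (x axis) and its shMp1Lib minus shMP1G difference (y axis, log2, 1 array each). Probes of 1 gene are joined, and Rpl38, Rpl28, Rps19 and Rps24 run from a low value at a dimmer probe to a value near the top of the plot or, for Rpl28, to -0.76.

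Other gene lists differed in the share that was lower with shMp1Lib, which was 6011 of 14103 over all features and 4398 of 8933 over named ones, beside 43 of 57 for the ribosomal proteins. Of 73 mitochondrial ribosomal proteins, which sit in another ribosome, 58 were lower with shMp1Lib than with shMP1G and 35 by over 1 (median -0.99). Of 70 respiratory chain genes 67 were lower and 53 by over 1 (median -1.49). Of 32 ribosome biogenesis factors 10 were lower (median 0.253), of 14 translation elongation and related factors 8 (median -0.0986), of 11 RNA polymerase I genes 6 (median -0.187) and of 35 proteasome subunits 21 (median -0.124), beside 0.0944 for all features. In the comparison of Mp1 with control shRNAs in FGF4, 0 genes of each of these lists passed.

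**Figure D5:**
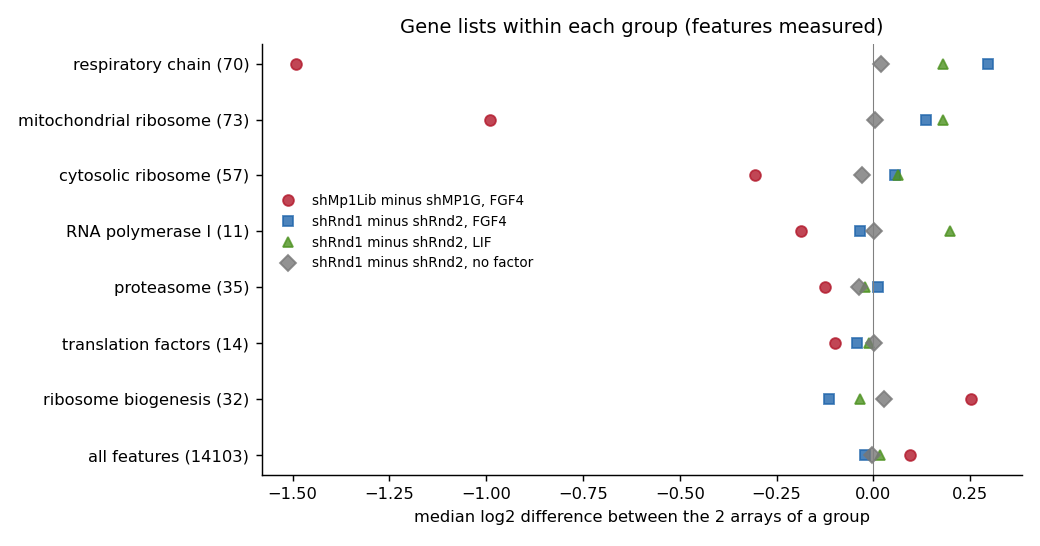
Median log2 difference between the 2 arrays of each group (x axis) for 7 gene lists and all features (y axis, features measured in brackets). The shMp1Lib minus shMP1G medians run from -1.49 for the respiratory chain to 0.253 for ribosome biogenesis, with -0.305 for the cytosolic ribosome.

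Among genes that regulate ribosome production, few passed the test in limma. Of 14 translation factors and of 11 RNA polymerase I genes 0 passed in any of the 6 comparisons, and of 32 biogenesis factors 1 passed in 1 comparison. That was Rrp1b, a nucleolar protein, at 0.76 for Mp1 shRNAs in FGF4 against LIF (adjusted p = 0.0223), where 19.5% of all features passed. With FGF4 against no growth factor, both with control shRNAs, the medians of these 3 lists were 0.082, -0.0163 and 0.127.

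Of 16 measured genes of the mTORC1 and Ragulator list, 1 passed in FGF4 against no growth factor, where 15.7% of all features did. It was Ddit4, an inhibitor of mTORC1 signalling, which rose by 0.71 (adjusted p = 0.0343). In FGF4 against LIF 3 passed, where 15.6% of all features did. Ddit4 rose by 0.74 (adjusted p = 0.03) and Rragd, a Rag GTPase, by 0.89 (adjusted p = 0.0443), while Mlst8, a subunit of mTORC1, was lower at -0.85 (adjusted p = 0.0182). For Mp1 shRNAs in FGF4 the 1 gene that passed was Akt1s1, an inhibitor within mTORC1, which was lower at -0.77 against no growth factor (adjusted p = 0.0427) and at -0.91 against LIF (adjusted p = 0.0199). The background was 14.2% and 19.5% there.

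Of 6 measured genes of the Myc network, which drives ribosomal protein transcription, 2 passed in FGF4 against no growth factor, both higher, where 15.7% of all features passed. Mxd4, a Myc antagonist, rose by 0.75 (adjusted p = 0.036). Myc passed (adjusted p = 0.035) with a mean level of 5.53 in FGF4 and 4.89 with no growth factor, but it was detected on 1 of the 2 FGF4 control arrays and was not well above background with no growth factor, so no fold is given. In FGF4 against LIF 1 of the 6 passed (Myc), where 15.6% of all features did. For Mp1 shRNAs 2 passed against no growth factor (Myc and Mxd4) and 2 against LIF (Myc higher and Mxd3 lower), with backgrounds of 14.2% and 19.5%. Myc read 4.89 on both LIF arrays, and Mxd3 read 4.83 and 4.89 with the Mp1 shRNAs. The calls of Myc and Mxd3 thus rest on a level near background in 1 of the groups compared. In Mp1 against control shRNAs in FGF4 and in LIF against no growth factor, 0 genes of the mTORC1 and Myc lists passed.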

How the data were processed

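RNA of 8 samples was hybridised to Illumina arrays, per the labels' protocols. The deposited non-normalized table gives an intensity and a detection p-value per probe and array, per the file headers. The sources used here name no upstream tools. A decimal point was missing from 294271 of 362248 deposited intensities (81.2%), and was restored by the count of digits and, for dim probes, by the detection p-value. No per-sample column was left unused (0). The deposited value table, with intensity values too, was used only to check IDs. The 90 member probes had a median percentile of 99.3 in the non-normalized table and 55.2 in the value table, so names follow the non-normalized table.

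Symbols come from the platform annotation. Of 45281 probes 32245 had 1 symbol, 17 several and 13019 none, and 32170 had a RefSeq gene ID (GRCm38.p6), which changed 0 symbols. Intensities were processed in limma 3.58.1 (R 4.3.3, statmod 1.5.0) with normexp, which took its negative controls from the detection p-values (offset 16), then quantile-normalized and put on a log2 scale. A probe needed a detection p-value below 0.05 on 2 or more arrays, and the brightest probe per symbol was taken, leaving 14103 features, 8933 of them named. The 4 group means were fitted together on the 8 arrays (lmFit, eBayes, 4 residual and 4.2 prior degrees of freedom), and two-sided p-values were adjusted by Benjamini-Hochberg across all features, with a threshold of 0.05. The scripts were tested on simulated data. The number of arrays limits the precision. Replicate numbers did not pair the control arrays (r of their deviations -0.0824 to 0.0436).

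Genes named are members that passed in a comparison (up to 8 a direction), the 6 widest and 4 narrowest in range, paralogs and a list of well-known members, of which Rpl5, Rpl11 and Rpl10 had no named probe, with up to 4 passing genes of other lists. Others are named as chosen after their values were seen, or for their probes. Members, lists and tests were chosen with earlier results of these data known. Alternatives were the background correction, offset, normalization, filter, probe choice, array weights, arrays fitted, replicate block and each array left out.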

Additional observations from a re-analysis of the deposited data

How the results depend on the processing

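Counts of ribosomal protein genes passing the test in limma changed with the settings as follows. They are of 57 genes (61 without a detection filter and 54 with the stricter one). The share of all features passing is not given for these settings, so the counts have no background beside them. For Mp1 shRNAs in FGF4 against LIF (3), the count was 1 with array medians, without a detection filter, with the stricter filter, with array weights and with the replicate block, 2 without background correction and with an offset of 50, 0 with only the 4 arrays compared, 4 with the mean of all probes and 5 with the dimmest probe (added after seeing the data), where the median moved to -0.322. For Mp1 shRNAs against no growth factor (1), it was 0 with array medians, the stricter filter, only the 4 arrays and the replicate block, and 2 with cyclic loess and with the dimmest probe. For FGF4 against no growth factor with control shRNAs (0), it was 1 with cyclic loess, without a filter and with the replicate block, and 2 with array weights and with only the 4 arrays. For FGF4 against LIF (0), it was 1 without background correction, with an offset of 50, without a filter, with only the 4 arrays and with the replicate block, and 2 with array weights. LIF against no growth factor and Mp1 against control shRNAs in FGF4 stayed at 0 in every setting that kept all their arrays.

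Leaving out each array in turn gave counts of 0 to 20 for Mp1 against control shRNAs in FGF4 (median -0.285 to 0.020), 0 to 23 against LIF (median -0.298 to -0.0496), 0 to 17 against no growth factor (median -0.246 to 0.0236), and 0 to 2 for FGF4 against LIF and for FGF4 against no growth factor. The high counts arose without shMP1G, in fits where the shMp1Lib array stands alone and has no replicate check. In those fits the share of members passing was below that of all features against LIF and against no growth factor. It was above that of all features only against the FGF4 control arrays. The high counts against LIF and against no growth factor thus do not set the members apart from other genes. For the 25 named members, no difference that had passed changed sign. Array medians put the median of all features at 0.182 and 0.387 for Mp1 shRNAs against no growth factor and LIF. Bright probes, near the top of the intensities (highest 32201.7), and dim ones such as Rpsa and Rpl39l limit what these arrays resolve. The causes were not tested.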

Other observations

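Excess free ribosomal proteins are known to stabilise p53 through Mdm2. Of 10 measured p53 targets, 2 passed in limma in FGF4 against no growth factor with control shRNAs, where 15.7% of all features passed, so the count is near the background. Cdkn1a rose by 0.96 (adjusted p = 0.00549), and Pmaip1 had a mean level of 6.84 in FGF4 and 4.86 with no growth factor (adjusted p = 0.000403), where it was not well above background, so no fold is given. Rps27l, which p53 also induces, differed by 0.11 (adjusted p = 0.844) in the same comparison. All 10 targets were higher with shMp1Lib than with shMP1G, by 0.0903 to 0.715, with 1 array each and no test, and Rps27l was lower there, by -0.71. Over all features 6011 of 14103 were lower with shMp1Lib, with a median difference of 0.0944, so most features were higher there too. Whether the p53 targets follow the ribosomal protein genes was not tested.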
